A study of Mus musculus with 6 samples.

Results

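MHC class II presents peptides taken up from outside a cell to CD4+ T cells. The 10 genes described here comprise the invariant chain gene Cd74, the chain genes H2-Aa, H2-Ab1 and H2-Eb1 of the peptide-presenting molecules, the peptide-editing genes H2-DMa, H2-DMb1, H2-Oa and H2-Ob, the transactivator gene Ciita and the Ets factor gene Spib. They were picked by symbol from the 24589 genes of the expression table, and all 10 symbols were present. The choice was made with the difference between TVA and DMSO already known, so that difference is described below, no p-value is given for these genes, and the count of them called by the fit across all genes supports nothing. Of the 10 genes, 9 passed the filter for low values (1 TPM or more in 3 or more libraries) and Ciita did not. TPM is a transcript level per unit of gene length, scaled to the same total in every library.

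Libraries came from primary CD8+ T cells of WT mice, purified with magnetic beads from C57BL/6 spleens and lymph nodes per the study's methods. All cells were activated with antibodies to CD3 and CD28 in Click's medium. The DMSO group (3 libraries) then received the solvent and the TVA group (3 libraries) 20 µM TVA, trans-vaccenic acid, a fatty acid of ruminant fat, for 24 h in each case. The labels do not say whether the libraries of a group came from separate animals or cultures, so p-values measure the spread between these libraries, which may be technical. CD8+ T cell genes were abundant in every library, with 304 to 366 TPM of Cd3e and 274 to 318 TPM of Cd8a. Pairs of libraries correlated across genes at 0.989 to 0.999 (Pearson, log2(TPM + 1); genes are not independent replicates). DMSO replicate 2 lay between the other DMSO libraries and the TVA libraries on the first principal component. For the 6 genes described below as lower with TVA, it lay nearer to the other DMSO libraries than to the TVA libraries in 6 of 6 cases. In those genes each DMSO library lay above each TVA library, so that count was largely set by how they were picked. Of the remaining genes, H2-DMa lay nearer to the TVA libraries, and H2-DMb1, H2-Oa and H2-Ob nearer to the other DMSO libraries.

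Class II molecules are pairs of an alpha and a beta chain. The invariant chain (CD74) blocks their groove and guides them to endosomes, where proteases trim it to a short peptide. H2-M then exchanges that peptide for antigen, and H2-O holds H2-M back. Transcription of these genes is switched on by CIITA, which binds no DNA itself and docks on the factors RFX, CREB and NF-Y at the conserved X and Y boxes of class II promoters. B cells and dendritic cells express class II at high level, whereas mouse T cells, unlike human T cells, are generally held to make little of it after activation. Spib encodes a relative of PU.1 known from B cells and plasmacytoid dendritic cells. C57BL/6 mice lack I-E on the cell surface because their I-E alpha gene is defective, so H2-Eb1 has no partner chain there.

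Of the 10 genes, 7 lie within 224 kb of chromosome 17 (34092340 to 34316674 in GRCm38, the assembly also called mm10), which is the class II part of the mouse MHC. Cd74, Ciita and Spib each lie on another chromosome. RefSeq promoter sequences (GRCm38.p6) were found for 7 of the 10 genes, and Cd74, H2-Ab1 and Ciita had no entry. The 130 bases before the transcription start are shown for 6 of them, because they let the promoters of genes that were lower with TVA be read beside those of genes whose groups overlapped. Sequences run 5′ to 3′ on the strand of the gene. Capitals mark the Y-box motif TGATTGG (an inverted CCAAT sequence, the site type of NF-Y), the X1-type motifs GCAAC and GTAAC (the site type of RFX) and the CRE palindrome TGACGTCA (the site type of CREB).
H2-Aa (chr17:34287824-34287953, minus strand): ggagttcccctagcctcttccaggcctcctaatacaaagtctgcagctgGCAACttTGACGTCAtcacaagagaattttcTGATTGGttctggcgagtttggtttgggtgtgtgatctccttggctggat
H2-Eb1 (chr17:34305737-34305866, plus strand): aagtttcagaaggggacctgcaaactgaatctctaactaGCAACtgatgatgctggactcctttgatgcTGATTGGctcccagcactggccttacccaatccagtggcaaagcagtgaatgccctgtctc
H2-DMb1 (chr17:34153061-34153190, plus strand): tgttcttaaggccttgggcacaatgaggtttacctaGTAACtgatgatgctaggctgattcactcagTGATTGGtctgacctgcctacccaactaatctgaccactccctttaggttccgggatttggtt
H2-Oa (chr17:34092249-34092378, plus strand): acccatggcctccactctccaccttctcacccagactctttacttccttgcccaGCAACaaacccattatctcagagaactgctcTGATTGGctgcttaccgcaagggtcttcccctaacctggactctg
H2-Ob (chr17:34238775-34238904, plus strand): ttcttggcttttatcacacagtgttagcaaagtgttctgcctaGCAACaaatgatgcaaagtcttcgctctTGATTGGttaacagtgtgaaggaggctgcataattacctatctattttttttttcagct
Spib (chr7:44532072-44532201, minus strand): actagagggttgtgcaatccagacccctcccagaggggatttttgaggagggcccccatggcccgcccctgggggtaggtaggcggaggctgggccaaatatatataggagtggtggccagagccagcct

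The 5 class II promoters shown share an arrangement that the choice of genes did not use. In each, an X1-type motif starts 28 to 31 bases before a Y-box motif on the strand of the gene (31 in H2-Aa, 30 in H2-Eb1, 31 in H2-DMb1, 31 in H2-Oa and 28 in H2-Ob). Of 32851 RefSeq promoter windows of 300 bases, searched on both strands, 7.82% held TGATTGG, 35.2% GCAAC, 23.3% GTAAC and 1.79% TGACGTCA. A pair with 20 to 40 bases between the starts of the X1-type and Y-box motifs, a spacing set after these promoters had been read, was present in 0.295% (97 windows). The CRE palindrome was found in the H2-Aa window and in none of the other promoters shown. No Y-box motif was found on either strand of the Spib promoter or at either of the 2 starts listed for H2-DMa, which says only that these letters are not there. The promoter of H2-DMb2, a close relative of H2-DMb1, is not shown. It held a Y-box motif but no X1-type motif on the strand of the gene. Thus not every class II promoter that was searched had the arrangement. In the windows shown, the marked matches do not overlap each other. The pair was present both in promoters of genes that were lower with TVA (H2-Aa and H2-Eb1) and in promoters of genes whose groups overlapped (H2-DMb1, H2-Oa and H2-Ob).

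**Figure D1:**
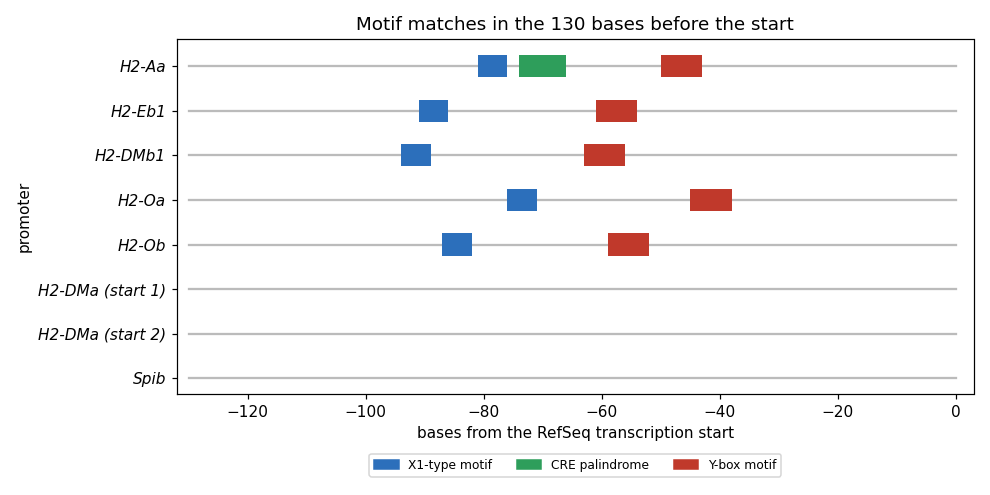
Motif matches on the strand of the gene in the 130 bases before the RefSeq transcription start (horizontal axis, bases from the start) of 7 genes, of which H2-DMa has 2 listed starts. Blue bars are X1-type motifs that stand 20 to 40 bases before a Y-box motif, the green bar the CRE palindrome and red bars Y-box motifs; the 5 class II promoters at the top show the same order and nearly the same spacing, and the H2-DMa and Spib windows are empty.

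With TVA, transcripts of the invariant chain, of the 3 presenting chains, of Ciita and of Spib were lower, and those of the peptide-editing genes overlapped between the groups. In 6 of the 10 genes each TVA library was below each DMSO library, and in the other 4 the groups overlapped. Among all 10866 genes tested, 11.2% had TVA values below all DMSO values and 27.3% had them above. With limma, a linear model fitted across all genes, 5 of the 9 genes that passed the filter had a Benjamini-Hochberg adjusted p under 0.05, each lower with TVA. Of all genes tested, 3.23% were called lower and 8.51% in either direction. The count of 5 became 2, 1 and 3 when TVA replicate 1, 2 or 3 was left out, and 4 or 5 without a DMSO library. In these bulk samples, fewer cells of one type and less RNA per cell cannot be told apart.

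Cd74 was the most abundant of the 10 genes. Its level was 72.3, 67.1 and 58.4 TPM in DMSO replicates 1, 2 and 3 and 48.6, 47.3 and 47.5 TPM in TVA replicates 1, 2 and 3. The TVA libraries lay close together and below the lowest DMSO library, and the DMSO libraries were spread more widely. The mean was 65.9 ± 6.98 TPM for DMSO and 47.8 ± 0.714 TPM for TVA (SD, n = 3 each), or 27.5% lower for TVA. On the log2(TPM + 1) scale, which understates the change of low genes, the difference was -0.45 (SE 0.072).

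The I-A molecule, the class II molecule that C57BL/6 mice display, is encoded by H2-Aa (alpha chain) and H2-Ab1 (beta chain). H2-Aa had 20.3, 24.9 and 21.5 TPM in DMSO libraries and 15.5, 14.0 and 17.2 TPM with TVA. H2-Ab1 had 22.8, 18.2 and 22.4 TPM in DMSO libraries and 13.7, 12.7 and 12.9 TPM with TVA. Neither gene's groups overlapped, although DMSO replicate 2 was the highest DMSO library for H2-Aa and the lowest for H2-Ab1. The mean of H2-Aa was 30.1% lower with TVA (log2 difference -0.49, SE 0.092) and that of H2-Ab1 38.0% lower (log2 difference -0.64, SE 0.084).

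H2-Eb1, the I-E beta chain gene, had a log2 difference close to that of H2-Ab1, and which of the pair was lower depended on the libraries kept. Its level was 11.0, 12.7 and 10.8 TPM in DMSO libraries and 6.51, 6.83 and 7.07 TPM with TVA. The mean was 40.8% lower (log2 difference -0.68, SE 0.070), which ranked 110 from the lowest of all 10866 genes tested. H2-Ea-ps, the I-E alpha pseudogene, was listed at 0 in all 6 libraries, and the paralog H2-Eb2 at 0.01 to 0.04 TPM.

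The regulator genes Ciita and Spib were less abundant than Cd74, H2-Aa, H2-Ab1 and H2-Eb1. Ciita had 0.79, 0.77 and 0.52 TPM in DMSO libraries and 0.47, 0.31 and 0.36 TPM with TVA, all under the level of 1 TPM that the filter asks for in at least 3 libraries, so it was not part of the fit. Spib had 6.81, 7.45 and 7.01 TPM in DMSO libraries and 4.22, 3.92 and 5.01 TPM with TVA. Neither gene's groups overlapped, but for Ciita the gap between the lowest DMSO and the highest TVA library was narrow. The mean of Ciita was 45.2% lower with TVA and that of Spib 38.2% lower. The log2 difference of Spib was -0.59 (SE 0.083), and -0.39 after a correction for GC content, the share of G and C bases in the transcripts, under which Spib was no longer among the genes called and 4 of the 9 were. Spib transcripts had the highest GC content of the 10 genes, 61.2%, and across all genes tested the log2 difference had a Spearman correlation of -0.40 with GC content (a correlation over genes, which are not independent). For Cd74, H2-Aa, H2-Ab1 and H2-Eb1 the values after that correction were -0.41, -0.51, -0.58 and -0.65.

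For each of the 4 peptide-editing genes the groups overlapped. H2-DMa, the alpha chain gene of H2-M, had 40.5, 41.4 and 36.9 TPM in DMSO libraries and 42.4, 37.3 and 40.5 TPM with TVA (log2 difference 0.02, SE 0.063). Its values interleaved, and the sign of its difference turned with median-of-ratios scaling (-0.02) and with quantile scaling (-0.0048). The sign also turned without DMSO replicate 3 (-0.03) and without TVA replicate 1 (-0.02). H2-DMb1, the beta chain gene, ranged from 2.76 to 3.48 TPM in DMSO libraries and from 2.66 to 2.98 TPM with TVA (log2 difference -0.11, SE 0.083). Its paralog H2-DMb2 ranged from 1.39 to 2.72 and from 0.77 to 2.03 TPM (limma adjusted p 0.33). Of the 50-base words in H2-DMb1 transcripts, 27.2% also occur in H2-DMb2 transcripts (GENCODE vM21), so reads could be exchanged between these paralogs and their separate values are uncertain.

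H2-O is encoded by H2-Oa and H2-Ob. H2-Oa had 8.38, 8.41 and 7.77 TPM in DMSO libraries and 8.74, 9.49 and 8.40 TPM with TVA (log2 difference 0.10, SE 0.061). H2-Ob ranged from 1.62 to 2.19 TPM in DMSO libraries and from 1.76 to 1.88 TPM with TVA (log2 difference -0.08, SE 0.094). Neither the H2-M nor the H2-O subunit genes separated the treatments. The 4 editing genes were not among those called, which does not show that they were unchanged.

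**Figure D2:**
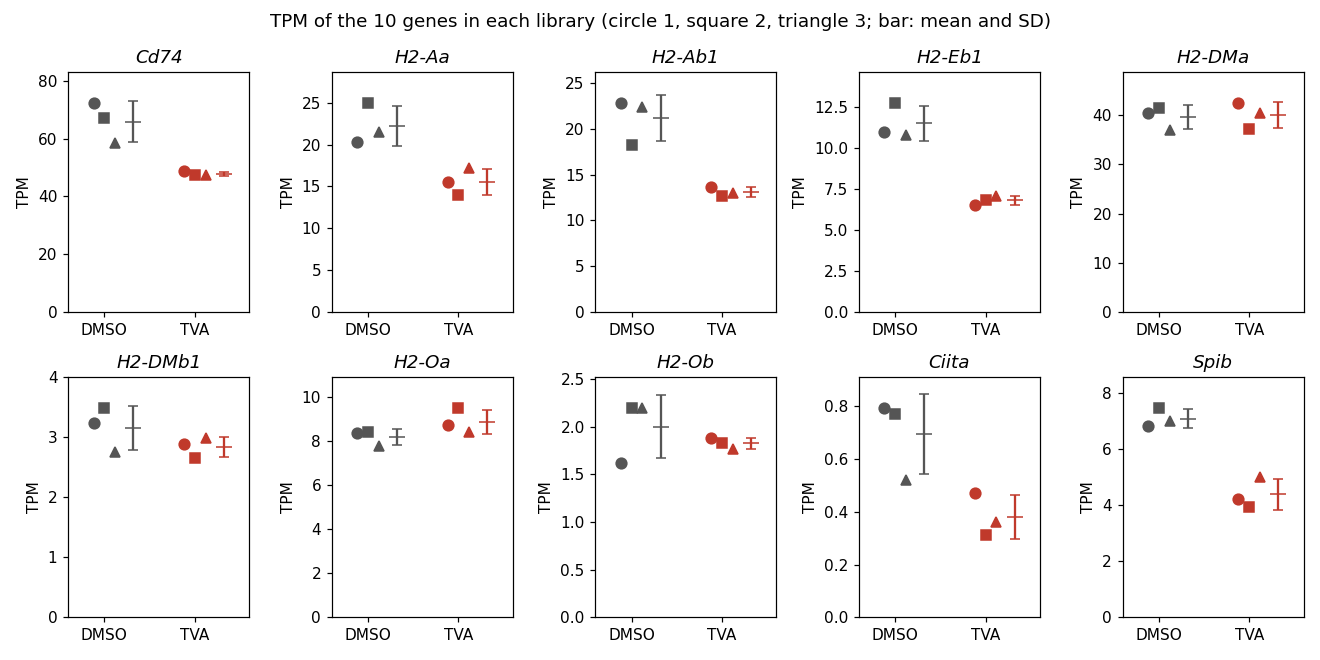
TPM (vertical axis, from 0) of the 10 genes in the 3 DMSO (grey) and 3 TVA (red) libraries, with the replicate number given by the symbol and the mean and SD drawn to the right of each group. The groups are separate for Cd74, H2-Aa, H2-Ab1, H2-Eb1, Ciita and Spib and overlap for H2-DMa, H2-DMb1, H2-Oa and H2-Ob.

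Because TPM is scaled by gene length, levels can also be set beside each other within a group. With DMSO, the order of the means was Cd74 (65.9 TPM), H2-DMa (39.6), H2-Aa (22.3), H2-Ab1 (21.1), H2-Eb1 (11.5), H2-Oa (8.19), Spib (7.09), H2-DMb1 (3.16), H2-Ob (2.00) and Ciita (0.693). Among neighbours in this order, the libraries overlapped only between H2-Aa and H2-Ab1. With TVA no neighbours overlapped, and the order was the same, except that H2-Oa (8.88 TPM) stood above H2-Eb1 (6.80 TPM). H2-Eb1 exceeded H2-Oa in each DMSO library and was below it in each TVA library.

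Levels were also set against Cd74 within each library. H2-Aa stood at 28.1%, 37.2% and 36.8% of the Cd74 level in the DMSO libraries and at 31.9%, 29.6% and 36.1% in the TVA libraries. H2-Ab1 stood at 32.3% ± 5.62 of Cd74 with DMSO and 27.4% ± 0.689 with TVA (SD, n = 3 each), and Spib at 10.8% ± 1.31 and 9.17% ± 1.21. These proportions overlapped between the groups for H2-Aa and Spib. For H2-Ab1 the DMSO libraries (27.2% to 38.3%) also overlapped the TVA libraries (26.8% to 28.1%). H2-Eb1 did not overlap, at 15.2% to 19.0% of Cd74 with DMSO and 13.4% to 14.9% with TVA. H2-DMa stood at 60.3% ± 3.75 of Cd74 with DMSO and 83.8% ± 4.44 with TVA, and H2-Oa at 12.5% ± 0.851 and 18.6% ± 1.29. Neither overlapped, and nor did H2-DMb1 (4.48% to 5.19% and 5.62% to 6.28%). H2-Ob overlapped (2.24% to 3.75% and 3.71% to 3.87%). Because Cd74 itself was lower with TVA, any gene that did not move would rise against it, so these proportions add nothing on the editing genes.

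**Figure D3:**
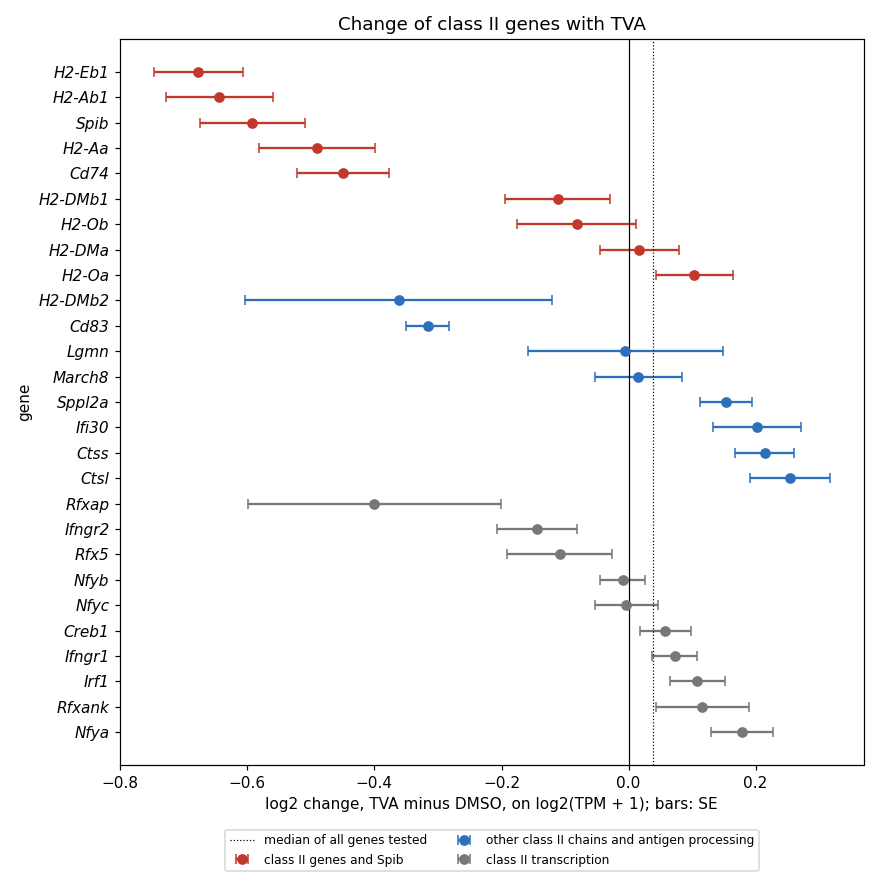
Log2 difference between TVA and DMSO (horizontal axis, on log2(TPM + 1), bars SE) for the class II genes and Spib that passed the filter (red), other class II chain and antigen-processing genes (blue) and class II transcription genes (grey, with 1 of the tested genes not drawn). The dotted line is the median of all 10866 genes tested, 0.04; H2-Eb1, H2-Ab1, Spib, H2-Aa and Cd74 form the lowest red points, from -0.68 to -0.45, apart from the 4 editing genes between -0.11 and 0.10.

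The rest of the pathway was read from lists of known pathway genes, whichever way they moved. Of 14 symbols for further class II chains and antigen-processing genes (some of them alternative names), 11 were in the table and 8 were tested. With limma, 2 of these were higher with TVA and 1 lower, against 5.28% and 3.23% of all genes tested, and 5 did not pass. Their median log2 difference was 0.08, against 0.04 for all genes tested. Ctss and Ctsl encode cathepsins S and L, which trim the invariant chain. Ctss had 87.7, 95.2 and 96.5 TPM in DMSO libraries and 105, 110 and 109 TPM with TVA (log2 difference 0.21, SE 0.047, limma adjusted p 0.036). Ctsl rose from 7.14 ± 0.555 to 8.70 ± 0.240 TPM (SD, n = 3 each; log2 difference 0.25, SE 0.063, limma adjusted p 0.049). Both genes separated the groups in the opposite direction to Cd74. Neither call was stable, since Ctss passed under 5 of 14 alternatives and Ctsl under 3 of 13, with adjusted p-values up to 0.16 and 0.18.

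Cd83 encodes a surface protein of activated lymphocytes and dendritic cells that is known to protect class II molecules from degradation. It had 133, 130 and 134 TPM in DMSO libraries and 106, 107 and 105 TPM with TVA. The libraries of each group lay within a few TPM of each other and the groups were well apart (log2 difference -0.32, SE 0.034, limma adjusted p 0.0042). This call was kept under each of 14 alternatives, with adjusted p-values from 0.0015 to 0.040. Sppl2a, whose product cleaves the remnant of the invariant chain in the membrane, and Ifi30, which encodes a thiol reductase of antigen processing, did not pass, with log2 differences of 0.15 (limma adjusted p 0.059) and 0.20 (0.099). Lgmn (legumain, an endosomal protease) was at -0.01 and March8 (a ubiquitin ligase) at 0.02.

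None of the 11 tested genes for class II transcription passed the threshold with limma, and 3 of them had an unadjusted p under 0.05. Their median log2 difference was 0.06, and 1 further gene of that list, Prdm1, a repressor of Ciita, stood at 0.41 to 0.60 TPM and was not tested. The RFX genes Rfx5, Rfxap and Rfxank had log2 differences of -0.11, -0.40 and 0.12 (limma adjusted p 0.39, 0.21 and 0.30). The large value of Rfxap came with widely spread DMSO libraries, at 14.5, 7.23 and 11.6 TPM, against 7.68 to 8.01 TPM with TVA. Nfya, a subunit gene of NF-Y, was at 0.18 (0.060) and the other NF-Y genes Nfyb and Nfyc at -0.0090 and -0.0036 (0.88 and 0.97). Interferon-γ is the classic inducer of Ciita, in part through IRF1. Irf1 had 84.4, 90.5 and 84.4 TPM in DMSO libraries and 95.4, 90.5 and 93.7 TPM with TVA (log2 difference 0.11, limma adjusted p 0.13). The interferon-γ receptor genes Ifngr1 and Ifngr2 were at 0.07 and -0.14 (limma adjusted p 0.20 and 0.16). The part of this route in the lower Ciita values was not tested.

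Among relatives and partners of Spib, 6 of 7 genes were tested and 1 passed. This was Pou2f2, which encodes the octamer factor OCT2, with 38.4, 36.0 and 36.2 TPM in DMSO libraries and 31.9, 33.5 and 31.8 TPM with TVA (log2 difference -0.18, SE 0.045, limma adjusted p 0.049). The call held under 5 of 14 alternatives, and after the GC correction the difference was 0.02. Spi1, the PU.1 gene, was low, at 1.91 to 3.11 TPM in DMSO libraries and 1.62 to 2.27 TPM with TVA (limma adjusted p 0.19). Irf4 and Irf8, which encode partners of the Ets factors, stood at 291 to 318 and 220 to 268 TPM with log2 differences of 0.06 and 0.12 (limma adjusted p 0.31 and 0.27). Pou2af1, a co-activator gene of B cells, had 40.9 to 44.7 TPM over the 6 libraries and a log2 difference of 0.04 (limma adjusted p 0.58).

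Spleen and lymph nodes also hold professional antigen-presenting cells, so their markers were read in the same libraries. Of 15 B cell markers, 12 were in the table, and 10 of these stayed under 1 TPM in every library. Ms4a1 (CD20) had 0.24 to 0.46 TPM and Cd79a 0.69 to 1.07 TPM over the 6 libraries, with overlapping groups in each case. Pax5, the B cell identity factor gene, was listed at 0 in DMSO replicates 2 and 3. The most abundant of these markers was Cd79b, a B cell receptor gene, with 9.94, 13.3 and 10.1 TPM in DMSO libraries and 9.68, 9.17 and 9.15 TPM with TVA. It was the only B cell marker tested and did not pass (log2 difference -0.22, SE 0.101, unadjusted p 0.066, limma adjusted p 0.18). Its groups did not overlap, and without DMSO replicate 2 its log2 difference was -0.09. Summed B cell marker levels ranged from 11.98 to 15.5 TPM in DMSO libraries and from 11.5 to 11.9 TPM with TVA, most of it from Cd79b. The part of B cells in the lower class II values was not tested.

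Conventional dendritic cell markers were also low. Itgax (CD11c) had 0.69 to 1.07 TPM and Flt3 0.14 to 0.27 TPM, and Cd209a was listed at 0 in all 6 libraries. The 8 markers summed to 7.65 to 8.27 TPM in DMSO libraries and 6.89 to 7.44 TPM with TVA, of which Zbtb46 gave the larger part (5.58 to 6.10 and 5.08 to 5.31 TPM), and it was the only one tested (log2 difference -0.15, limma adjusted p 0.12). Of the 6 plasmacytoid dendritic cell markers, Siglech stood at 0.02 to 0.16 TPM. The 4 that were tested included Pacsin1, which was higher with TVA (log2 difference 0.25, limma adjusted p 0.042, past the threshold under 8 of 14 alternatives), and Cox6a2, which had 4.68, 4.91 and 3.83 TPM in DMSO libraries and 2.79, 3.76 and 2.71 TPM with TVA (log2 difference -0.43, limma adjusted p 0.062). Cox6a2, Tcf4 (1.16 to 1.24 and 1.09 to 1.14 TPM) and Klk1 (0.05 to 0.10 and 0 to 0.04 TPM) had each TVA library below each DMSO library. Ly6d and Siglech overlapped. The summed level of these 6 markers overlapped between the groups (14.7 to 17.6 and 16.0 to 17.2 TPM). Pacsin1, which was higher with TVA, gave the larger part of it (8.47 to 9.54 and 10.8 to 11.3 TPM). The part of dendritic cells in the class II values was not tested.

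Of 11 macrophage and monocyte markers, 5 were tested, and 2 of these were higher with TVA, the direction opposite to Cd74. Lyz2, which encodes a lysozyme, had 30.9, 31.0 and 28.9 TPM in DMSO libraries and 41.3, 39.8 and 38.0 TPM with TVA (log2 difference 0.38, SE 0.048, limma adjusted p 0.0076). Tyrobp, an adaptor gene shared with NK cells, was higher as well (0.57, SE 0.134, limma adjusted p 0.044), which held under 7 of 14 alternatives. Of the other tested markers, 3 did not pass, among them Csf1r, the macrophage growth factor receptor gene, at 0.64 to 0.82 and 1.00 to 1.28 TPM (limma adjusted p 0.082), and Cd14, at 1.75 to 2.34 and 2.51 to 2.77 TPM (0.083). The 11 markers summed to 46.4 to 53.0 TPM in DMSO libraries and 64.0 to 70.0 TPM with TVA. Of those below the filter, Fcgr1 (0.13 to 0.16 and 0.44 to 0.56 TPM), Adgre1 (0.26 to 0.50 and 0.57 to 0.89 TPM) and C1qc (0.13 to 0.26 and 0.34 to 0.55 TPM) had each TVA library above each DMSO library, whereas C1qa (0.03 to 0.08 and 0 to 0.22 TPM) overlapped. The part of these cells in the class II values was not tested. Of the 9 CD8+ T cell markers, all of them tested, Cd3g (limma adjusted p 0.0063) and Prf1 (0.038) were higher with TVA. Cd3g passed under 12 of 14 alternatives and Prf1 under 8 of 14, with adjusted p-values up to 0.056 and 0.15. Neither of the 2 CD4+ T cell markers passed, and Cd4 had means of 4.17 ± 0.337 and 3.53 ± 0.173 TPM (SD, n = 3 each; limma adjusted p 0.12).

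**Figure D4:**
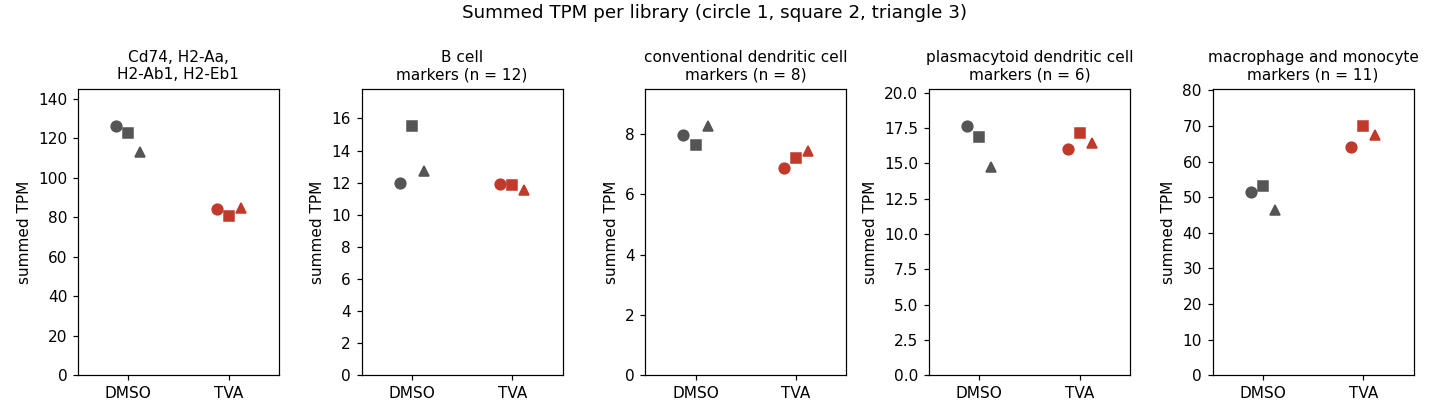
Summed TPM per library (vertical axes, from 0) of 4 class II genes, Cd74, H2-Aa, H2-Ab1 and H2-Eb1, and of 4 sets of markers for other cell types. The class II sum was 113 to 126 TPM in DMSO libraries and 80.9 to 84.6 TPM with TVA; B cell and conventional dendritic cell markers were low throughout, and the macrophage and monocyte sum was 46.4 to 53.0 TPM with DMSO and 64.0 to 70.0 TPM with TVA.

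The genes whose pattern over the 6 libraries was most like that of the class II chains were found by Pearson's r with the mean log2(TPM + 1) of Cd74, H2-Aa, H2-Ab1 and H2-Eb1. Candidates were the 1125 other tested genes whose log2 values ranged over at least 0.5. The 8 highest were Trim66 (r = 0.999), Rell2 (0.996), Il2 (0.993), Xdh (0.993), Tspan9 (0.992), Axl (0.992), Acsl6 (0.991) and Ube2l6 (0.990). These values are descriptions over 6 libraries that fall into 2 groups, so that any gene clearly lower with TVA scores high. Trim66 had 7.74, 8.22 and 7.32 TPM in DMSO libraries and 4.26, 4.08 and 4.49 TPM with TVA. Il2, the gene of the T cell growth factor, had 500, 517 and 500 TPM in DMSO libraries and 357, 361 and 362 TPM with TVA. Axl, a receptor tyrosine kinase gene, had 16.4, 15.8 and 14.7 TPM in DMSO libraries and 8.01, 7.61 and 7.41 TPM with TVA.

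Over 14 alternatives, Cd74 ranged from -0.53 to -0.38, H2-Aa from -0.56 to -0.41 and H2-Ab1 from -0.74 to -0.58. Over the 13 alternatives that kept them, H2-Eb1 ranged from -0.75 to -0.61 and Spib from -0.69 to -0.39. All of these values were negative. H2-Oa stayed positive (0.06 to 0.15), H2-DMb1 and H2-Ob stayed negative but nearer to 0 (-0.18 to -0.06 and -0.18 to -0.03), and H2-DMa lay on either side of 0 (-0.03 to 0.07).

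**Figure D5:**
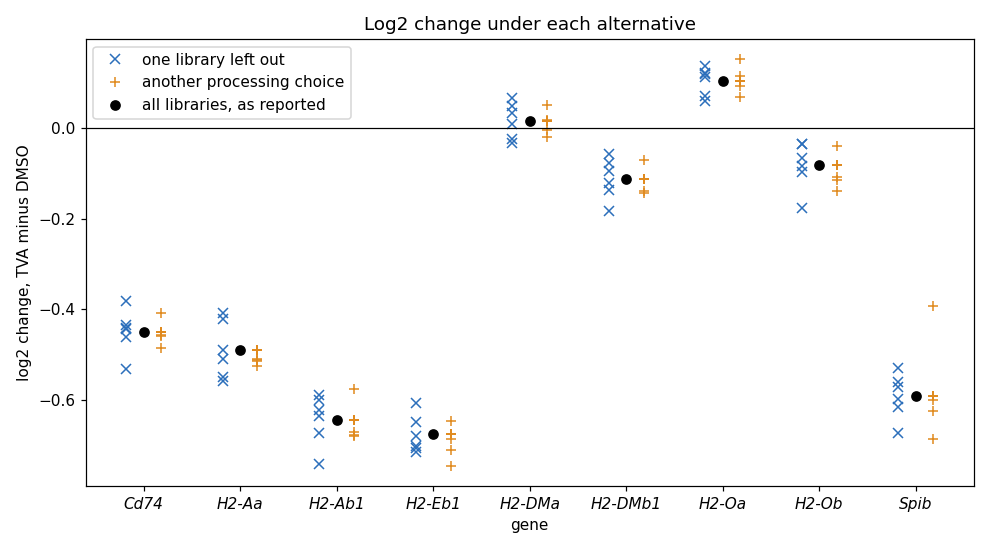
Log2 difference between TVA and DMSO (vertical axis) of the 9 genes that passed the filter, with all 6 libraries as reported (black), with each library left out in turn (blue) and under other processing choices (orange). Values for Cd74, H2-Aa, H2-Ab1, H2-Eb1 and Spib stay at or below -0.38, and those of the 4 editing genes stay between -0.18 and 0.15.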

How the data were processed

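The authors deposited 1 table of TPM values per gene symbol, with 2 decimals, scaled to the same total per library. The submitters' processing notes name STAR, RSEM and mm10, and their versions and the annotation are not given in the sources used here. TPM keeps no depth, so sequencing depth is unknown and neither counting intervals nor detection limits are given. Columns were matched to samples by the column name in each sample's description.

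Values were taken as log2(TPM + 1). Genes that reached 1 TPM in 3 or more libraries (10866 genes) were fitted with limma 3.58.1 in R 4.3.3, with a variance trend and no replicate block, and tested two-sided at a Benjamini-Hochberg threshold of 0.05 over all of them. Figures were drawn with matplotlib 3.10.9. Alternatives were a pseudocount of 0.1, no filter (TPM above 0), a mean TPM of at least 10, median-of-ratios and quantile scaling, no trend, a replicate block, each library left out in turn, and a GC correction (per library, a loess curve of span 0.5 on median transcript GC content in GENCODE vM21, known for 97.4% of the genes tested). The fit was tested on simulated data.

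The 10 genes, the other gene lists and the tests were chosen with earlier results of these data known. Genes named were these 10, listed genes past the threshold, selected markers and the 8 genes most alike in pattern. Others that the text names beside them were picked after their values were seen. Marker genes without a row in the table (Ighm, Ighd and Igkc) were not analysed here, and the values of some listed genes are not reported here.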

Additional observations from a re-analysis of the deposited data

How the results depend on the processing

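The reported fit called 925 genes, 62.1% of them higher. The count was 494 when every gene above 0 TPM was fitted, 608 when the mean had to reach 10 TPM, and 102 to 2242 with a library left out (2242 without DMSO replicate 2, 294 without DMSO replicate 3, 125, 102 and 113 without TVA replicates 1 to 3). Higher calls made up 35.4% after median-of-ratios scaling, 46.4% after quantile scaling and 52.5% after the GC correction. Of the 10 genes, 5 were called in the reported fit, 3 where the mean had to reach 10 TPM (4 of the genes then tested) and 1 to 5 with a library left out. Of the other class II genes, 3 were called in the reported fit and 1 without the low-value filter, after median-of-ratios scaling or after quantile scaling, and 1 to 7 with a library left out (7 without DMSO replicate 2, 1 without DMSO replicate 3 or any TVA library). Of the dendritic and macrophage markers, 3 were called in the reported fit, 5 after the GC correction and 0 to 3 with a library left out (1 without DMSO replicate 3 or TVA replicate 3, 0 without TVA replicate 2). B cell markers gave 0 calls throughout, but only 1 of them, Cd79b, was tested, except without the low-value filter, where 12 were. Pou2f2 reversed after the GC correction (0.018). Over the 9 fitted genes, 120 of 121 values moved by less than the spread between replicates. The exception was Spib after the GC correction. The filters, the trend and the replicate block cannot change a gene's log2 difference. Leaving a library out cannot move it by as much as that spread. The count therefore speaks only to the pseudocount, the scaling and the GC correction. Same-numbered libraries deviated together with correlations of 0.16, 0.03 and -0.08, so the numbers were not taken to pair the samples. Blocking on the replicate number called 218 genes, 4 of the 10 genes, 1 of the other class II genes and 1 of the other markers. The cause of these shifts was not tested, except that filters change the number of genes tested. Depth is unknown, so what it limits cannot be stated.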
